A study of Mus musculus with 45 samples.

Results

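Acetylcholinesterase (Ache) and 9 other genes of the neuromuscular junction were followed through cultures of embryonic mouse limbs exposed to bisphenol S (BPS), a substitute for bisphenol A. The set was chosen for 1 result, the lower level of Ache after 48 h at 50 µM BPS, and the others were taken because their products work at the same synapse: the butyrylcholinesterase gene Bche, the collagen tail gene Colq, the organisers Musk and Rapsn, and the acetylcholine receptor subunit genes Chrna1, Chrnb1, Chrnd, Chrne and Chrng. All 10 were found by symbol among the 34994 genes of the joined count tables. The comparison of 50 µM BPS with control at 48 h therefore served to choose them, and its values are given below as a description without a test.

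The nerve-muscle synapse passes its signal by acetylcholine, which opens a pentameric channel on the muscle surface and is then broken down in the cleft by acetylcholinesterase, held in the basal lamina by the collagen tail ColQ. Motor nerve agrin acts through LRP4 and the kinase MuSK, and rapsyn then gathers the receptors under the nerve ending. Fetal muscle makes the receptor with a gamma subunit, which an epsilon subunit replaces as the synapse matures. In rodents acetylcholinesterase is also made by neurons, erythroid cells and megakaryocytes.

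The libraries came from forelimb buds of CD1 mouse embryos at gestation day 13, kept in culture with 10 µM BPS, with 50 µM BPS or with the solvent dimethyl sulfoxide (DMSO), called control. The excised limbs were pooled, with male and female embryos in one culture, and an excised limb lacks the cell bodies of its motor neurons. RNA was taken at 3, 24 or 48 h, with 5 libraries for each of the 9 groups, 45 libraries in all. The strain labels of the 5 libraries at 50 µM and 48 h read CD2 to CD6 in turn, and these libraries were analysed as CD1. Nothing in the labels says that the libraries of a group were separate cultures, so p-values measure the spread between libraries, which may be technical.

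Reads assigned to genes came to 15.2 to 23.1 M per library (median 18.2 M). Levels are given as CPM, reads scaled to a library total of 1 M, and fold changes are log2 values with their standard error (SE) from edgeR's quasi-likelihood test. The Benjamini-Hochberg adjustment of its p-values covered every gene tested in a comparison, and genes with an adjusted p under 0.05 are called. The correlation of log2 CPM with the other libraries of the same group, taken as the median, was lowest for replicate 5 of 50 µM at 24 h (0.9803), for replicate 1 of control at 48 h (0.9814) and for replicate 5 of control at 24 h (0.9837), and reached 0.9881 elsewhere. Muscle RNA was present in every library, with a summed level of 35 sarcomere genes of at least 2266 CPM. Fewer cells of a type and less RNA per cell cannot be told apart in such bulk samples.

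Upstream sequence is shown for the 4 members on which the contrasts below turn: Ache, the gene the set was chosen for, Chrna1 and Chrng, subunits of the fetal receptor, and Chrne, the adult subunit. The RefSeq table of build GRCm38.p6 held promoters of 7 of the 10 members; Colq, Rapsn and Chrnd had no entry. Within the 250 bases before each RefSeq start, bases that GENCODE M21 annotates as exon of the same gene were left out. Capitals mark CANNTG, the E-box core bound by myogenic factors, of which CAGCTG is the form found in many muscle genes and is counted within CANNTG, and CCGGAA, the core of the N-box. Both strands were searched, and the sequences read 5′ to 3′ on the strand of the gene.
Ache, chr5:137288058-137288253, plus strand: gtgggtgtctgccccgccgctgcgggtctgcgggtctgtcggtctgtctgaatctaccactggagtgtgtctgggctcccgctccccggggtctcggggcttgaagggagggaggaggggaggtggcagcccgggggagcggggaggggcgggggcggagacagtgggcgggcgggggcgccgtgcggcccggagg
Chrna1, chr2:73580339-73580588, minus strand: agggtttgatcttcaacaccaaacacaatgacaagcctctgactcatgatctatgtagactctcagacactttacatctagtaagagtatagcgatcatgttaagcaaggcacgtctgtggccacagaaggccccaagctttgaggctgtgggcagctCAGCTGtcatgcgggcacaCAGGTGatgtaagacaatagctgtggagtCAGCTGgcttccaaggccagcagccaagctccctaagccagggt
Chrng, chr1:87205561-87205809, plus strand: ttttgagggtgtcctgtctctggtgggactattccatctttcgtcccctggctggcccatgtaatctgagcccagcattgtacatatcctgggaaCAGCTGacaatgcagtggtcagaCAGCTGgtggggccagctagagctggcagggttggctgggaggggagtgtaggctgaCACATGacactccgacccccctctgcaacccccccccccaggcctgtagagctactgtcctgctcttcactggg
Chrne, chr11:70619217-70619444, minus strand: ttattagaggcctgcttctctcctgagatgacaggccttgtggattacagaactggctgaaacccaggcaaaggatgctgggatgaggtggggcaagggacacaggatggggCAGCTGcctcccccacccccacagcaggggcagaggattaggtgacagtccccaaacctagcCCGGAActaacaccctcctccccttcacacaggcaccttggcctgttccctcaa

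The Chrna1 and Chrng stretches each held 3 CANNTG matches, 2 of them CAGCTG, and no CCGGAA. The Chrne stretch held 1 CAGCTG and 1 CCGGAA. None of these letters stood in the 196 bases shown for Ache; the CACGTG of its full window overlapped an exon of another transcript. The stretches of Bche, Musk and Chrnb1, cut in the same way and not shown, held 2, 3 and 3 CANNTG matches. Of these 0, 1 and 0 were CAGCTG, and none of the 3 stretches held CCGGAA. Among 32851 RefSeq windows of 250 bases, 66.2% held CANNTG, 13% held CAGCTG and 12% held CCGGAA, so a single match is common. The share of windows with 2 or 3 matches was not counted. A match is a run of letters and not evidence of binding.

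Ache (ENSMUSG00000023328, mm10 chromosome 5, 137287519 to 137294466, plus strand) was about as abundant at 48 h of control culture as at 3 h, and at 48 h its level was lowest in the 50 µM libraries. At 48 h the 5 libraries at 50 µM BPS held 6.60, 10.1, 9.11, 9.97 and 8.22 CPM, against 20.7, 16.9, 16.1, 15.3 and 18.5 CPM in the control libraries. No library at 50 µM reached any control library, and the gap between the groups was wider than the range within the 50 µM group. The means were 8.81 ± 1.45 CPM at 50 µM and 17.5 ± 2.17 CPM in control (SD, n = 5 each), a log2 fold change of -0.99 ± 0.12 (SE). Over all genes tested, 1.68% were lower at 50 µM without overlap of the libraries, whatever the width of the gap. Left out one at a time, the 10 libraries moved the log2 fold change between -1.04 and -0.90. Ache was chosen from these libraries, so this range is a description and lends no support. These values rest on 107 to 213 reads per library at 50 µM and 251 to 365 in control.

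At 10 µM and 48 h Ache stood between the other doses. Its libraries held 18.4, 13.2, 11.2, 14.4 and 12.7 CPM, so that 1 of 5 lay within the control range and 4 lay below it. The mean was 14 ± 2.72 CPM, against 17.5 ± 2.17 CPM in control (SD, n = 5 each). The log2 fold change of -0.32 ± 0.12 had a 95% interval of -0.59 to -0.06 and did not pass (adjusted p = 0.9996). These control libraries are the ones that entered the choice of Ache, so the 10 µM value is not independent of it.

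Ache was not called at the earlier times at either dose. At 3 h the 50 µM libraries held 15.1, 12.0, 15.6, 17.2 and 13.5 CPM, against 18.5, 17.1, 13.3, 15.9 and 19.3 CPM in control. The ranges overlapped, and the log2 fold change was -0.19 ± 0.11 (95% interval -0.42 to 0.04, adjusted p = 0.72). At 24 h the 50 µM libraries held 14.9, 12.7, 16.2, 16.9 and 4.90 CPM, against 13.8, 14.8, 14.7, 14.2 and 10.6 CPM in control. Replicate 5 was low in both groups at that time, and at 50 µM it held 84 Ache reads, the fewest of any library. Each of these libraries also agreed less with its group over all genes than the other 4 did. With all libraries the log2 fold change at 24 h was -0.04 ± 0.27 (95% interval -0.66 to 0.58, adjusted p = 0.975). Without replicate 5 the mean at 50 µM was 15.2 ± 1.84 CPM (SD, n = 4), against 14.4 ± 0.47 CPM for control without its own replicate 5 (SD, n = 4). With any single library left out, the log2 fold change lay between -0.15 and 0.16. At 10 µM the log2 fold change was -0.01 ± 0.10 at 3 h and -0.09 ± 0.12 at 24 h.

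Over time in control culture Ache was lower at 24 h than at 3 h, and its mean at 48 h was near that at 3 h. The control means were 16.8 ± 2.38, 13.6 ± 1.72 and 17.5 ± 2.17 CPM at 3, 24 and 48 h (SD, n = 5 each). The log2 fold change was -0.32 ± 0.11 for 24 over 3 h (adjusted p = 0.0247). This call was near the threshold and was lost without control 24 h replicate 5 (adjusted p = 0.0622) or without control 3 h replicate 1, 2 or 5 (0.0672, 0.0504 and 0.0810). The control libraries at 48 h entered the choice of Ache, so their differences from earlier times are given as a description without a test, 0.36 ± 0.11 for 48 over 24 h and 0.05 ± 0.11 for 48 over 3 h. With 10 µM BPS the change of 24 over 3 h was -0.40 ± 0.11 (adjusted p = 0.00655) and that of 48 over 24 h was 0.13 ± 0.13 (adjusted p = 0.518). With 50 µM BPS it was -0.18 ± 0.28 for 24 over 3 h (adjusted p = 0.654). The 48 h libraries at 50 µM, used for the choice, were not compared with earlier times by a test.

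**Figure D1:**
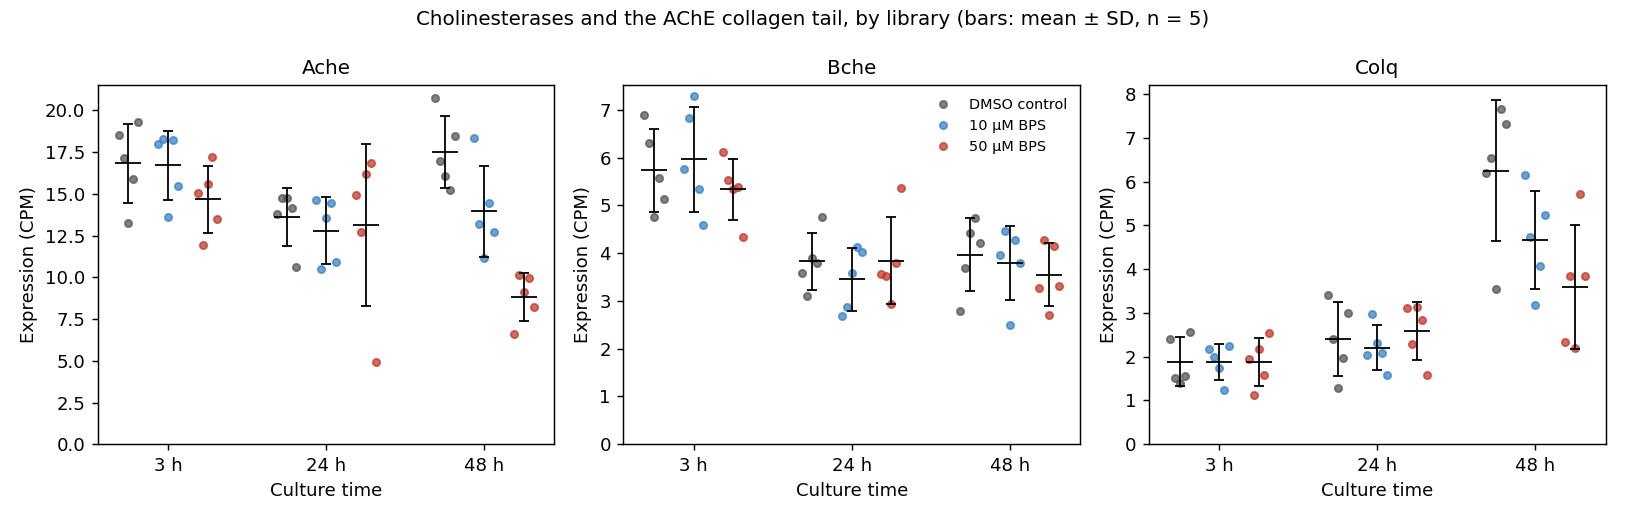
Expression in CPM (vertical axis) of Ache, Bche and Colq at 3, 24 and 48 h of culture (horizontal axis), with points for libraries and bars for the mean ± SD of 5; at each time control, 10 µM and 50 µM BPS stand from left to right. The Ache libraries at 50 µM and 48 h lie between 6.60 and 10.1 CPM, below every control library of that time, and the low point at 50 µM and 24 h is replicate 5 with 4.90 CPM.

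Colq, whose collagen tail anchors acetylcholinesterase in the synaptic basal lamina, rose late in culture and was also low at 50 µM and 48 h. In control libraries it held 2.41, 1.52, 1.39, 1.55 and 2.57 CPM at 3 h and 3.42, 2.41, 1.28, 1.960 and 3.01 CPM at 24 h. At 48 h the control libraries held 6.19, 6.53, 3.56, 7.66 and 7.32 CPM, and each was above all those of the earlier times. The log2 fold change of 48 over 24 h was 1.36 ± 0.25 in control (adjusted p = 0.00125) and 1.09 ± 0.20 with 10 µM BPS (adjusted p = 0.00047). Between 24 and 3 h it did not pass in control (0.34 ± 0.26, adjusted p = 0.321).

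At 48 h Colq held 2.34, 3.85, 2.20, 5.72 and 3.85 CPM at 50 µM BPS, against the control values just given. Of the 5 libraries at 50 µM, 2 lay below every control library and 3 lay inside the control range, so the groups overlapped. The means were 3.59 ± 1.43 CPM at 50 µM and 6.25 ± 1.62 CPM in control (SD, n = 5 each), and the log2 fold change was -0.78 ± 0.25. At 10 µM the libraries held 6.14, 4.73, 3.19, 4.07 and 5.23 CPM, and the log2 fold change of -0.42 ± 0.21 did not pass (95% interval -0.86 to 0.02, adjusted p = 0.9996). At 3 and 24 h no dose differed from control beyond the spread, with log2 values between -0.14 and 0.11.

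Bche, which encodes the second cholinesterase, fell early in culture. Its means in control were 5.74 ± 0.87, 3.83 ± 0.60 and 3.97 ± 0.77 CPM at 3, 24 and 48 h (SD, n = 5 each). The log2 fold change of 24 over 3 h was -0.60 ± 0.15 in control (adjusted p = 0.00386), -0.80 ± 0.17 with 10 µM BPS (adjusted p = 0.000599) and -0.50 ± 0.17 with 50 µM BPS (adjusted p = 0.0181, and 0.0617 without 50 µM 24 h replicate 3). BPS made no called difference at any time tested, and at 50 µM and 48 h its level of 3.55 ± 0.66 CPM overlapped control (log2 fold change -0.16 ± 0.18).

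The subunits of the fetal receptor rose during culture at every dose. Chrng, the gamma subunit that marks the fetal receptor, held 23.6, 21.2, 24.3, 26.7 and 22.1 CPM in the control libraries at 3 h. At 24 h they held 60.5, 58.3, 46.5, 44.3 and 55.6 CPM, all above the 3 h values. The log2 fold change of 24 over 3 h was 1.15 ± 0.09 in control (adjusted p = 2.53e-09), 1.12 ± 0.09 with 10 µM BPS (adjusted p = 1.42e-08) and 1.08 ± 0.08 with 50 µM BPS (adjusted p = 1.69e-10). Between 48 and 24 h Chrng did not pass in control (0.14 ± 0.10, adjusted p = 0.412).

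Chrna1, the subunit that carries the main acetylcholine contacts, averaged 21.5 ± 2.14, 50.7 ± 7.63 and 65.0 ± 9.12 CPM in control at 3, 24 and 48 h (SD, n = 5 each). It rose by 1.22 ± 0.10 on the log2 scale for 24 over 3 h in control (adjusted p = 9.21e-09). Its rise of 0.35 ± 0.11 for 48 over 24 h was marginal (adjusted p = 0.0418). It was lost in 8 of the 10 fits that left out 1 library, with adjusted p between 0.0674 and 0.107, and held only without control 48 h replicate 3 or control 24 h replicate 5. Chrnd, the delta subunit, averaged 9.57 ± 1.17, 25.6 ± 6.35 and 35.3 ± 6.28 CPM, and its 48 h level was 1.87 ± 0.13 above 3 h on the log2 scale (adjusted p = 5.22e-09). Chrnb1, the beta subunit, averaged 21.2 ± 1.99, 39.3 ± 4.43 and 44.2 ± 4.32 CPM and was 1.05 ± 0.09 higher at 48 than at 3 h (adjusted p = 4.83e-08).

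At 50 µM and 48 h the same subunits lay close to control. Chrng held 62.1, 62.2, 65.3, 66.1 and 62.9 CPM at 50 µM, against 63.0, 60.3, 45.7, 62.4 and 61.2 CPM in control. The control library at 45.7 CPM was apart from its group, and the other values of both groups lay within 6 CPM of each other. Chrna1 held 70.8, 63.6, 60.3, 69.4 and 64.6 CPM at 50 µM, against 61.5, 69.9, 50.7, 73.3 and 69.8 CPM in control. The log2 fold changes were 0.12 ± 0.08 for Chrng, 0.01 ± 0.09 for Chrna1, 0.05 ± 0.11 for Chrnd and -0.10 ± 0.07 for Chrnb1, each with overlapping libraries. At 3 h Chrnb1 held 17.3, 15.4, 19.5, 17.0 and 17.8 CPM at 50 µM, against 19.5, 18.7, 22.4, 22.4 and 23.2 CPM in control. Only 1 of the 5 libraries at 50 µM lay inside the control range, and the log2 fold change of -0.28 ± 0.09 did not pass (95% interval -0.46 to -0.10, adjusted p = 0.364).

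Chrne, the epsilon subunit of the adult receptor, was near the floor throughout. It held 0 to 9 reads per library, and the 5 control libraries at 48 h held 5 reads in all. A count of 3 reads is 0.13 to 0.197 CPM in single libraries, and Chrne was the member that passed the filter on low counts in 0 of the 12 comparisons. Its share of the summed Chrne and Chrng level per kilobase averaged 1.81 ± 1.69% in control at 3 h, 0.569 ± 0.486% at 24 h and 0.252 ± 0.350% at 48 h (SD, n = 5 each). At 48 h the share was 0.774 ± 0.419% at 10 µM and 0.409 ± 0.357% at 50 µM. In exact two-sided permutation tests over 11 comparisons, which leave out 50 µM against control at 48 h, no difference of this share passed, the lowest adjusted p being 0.0873. Without control 3 h replicate 1, whose Chrne count was 0, the differences of 24 and of 48 from 3 h in control, -1.69 and -2.01 percentage points, had an adjusted p of 0.0437 each in the same exact test. Chrne overlaps the gene 4930544D05Rik on the other strand, and the counting is not stated to use strand, so its few reads are uncertain.

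The organisers of the postsynaptic membrane rose with the receptor subunits. Rapsn, whose product ties receptors to the cytoskeleton, averaged 10.8 ± 1.11, 19.4 ± 2.55 and 30.7 ± 6.49 CPM in control at 3, 24 and 48 h (SD, n = 5 each). It rose at both steps, by 0.83 ± 0.10 for 24 over 3 h (adjusted p = 1.77e-06) and by 0.66 ± 0.13 for 48 over 24 h (adjusted p = 0.00278) on the log2 scale. Musk, the receptor kinase that answers to agrin, averaged 5.57 ± 1.42, 9.29 ± 1.06 and 9.76 ± 1.34 CPM, with a rise of 0.72 ± 0.15 at the first step (adjusted p = 0.000685) and 0.07 ± 0.12 at the second (adjusted p = 0.770).

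With 50 µM BPS at 48 h Rapsn held 34.7, 28.6, 30.2, 30.1 and 31.1 CPM, against 39.2, 33.4, 22.6, 32.1 and 26.1 CPM in control. All 5 libraries at 50 µM lay inside the control range (log2 fold change 0.01 ± 0.12). Musk held 13.2, 11.8, 9.18, 10.6 and 11.2 CPM at 50 µM, against 7.78, 9.51, 9.55, 11.2 and 10.7 CPM in control (log2 fold change 0.19 ± 0.12), with overlap. The transcript Gm13778, which overlaps Rapsn on the other strand, stood between 1.33 and 2.00 CPM over the 9 groups.

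**Figure D2:**
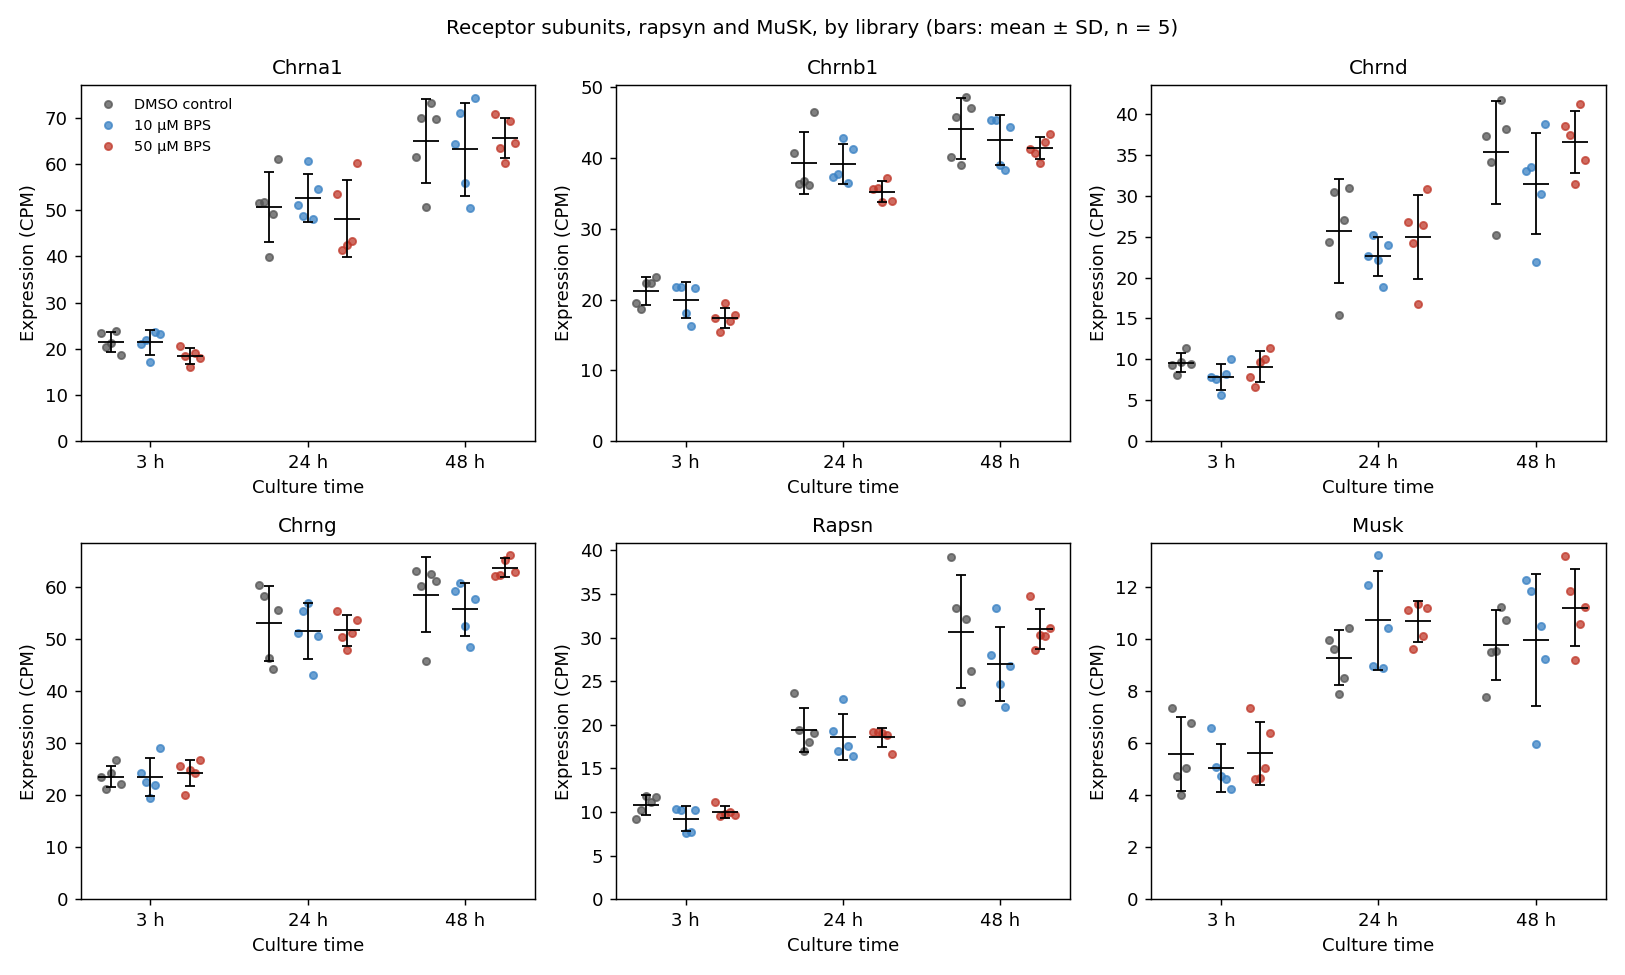
Expression in CPM (vertical axis) of Chrna1, Chrnb1, Chrnd, Chrng, Rapsn and Musk at 3, 24 and 48 h (horizontal axis), with points for libraries and bars for the mean ± SD of 5; control, 10 µM and 50 µM BPS stand from left to right at each time. All 6 genes are higher at 24 than at 3 h at each dose, and each BPS dose overlaps the control of its time. For Chrng at 48 h the libraries at 50 µM (62.05 to 66.09 CPM) lie above those at 10 µM (48.57 to 60.79 CPM).

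Most members were called between culture times. Of 9 members tested, 6 rose and 2 fell between 3 and 24 h of control culture, where 40.2% of all 16536 genes tested were called, 20% higher and 20.1% lower. For 48 over 24 h in control 4 rose and 0 fell, counting Ache, whose 48 h control libraries entered the choice, where 16% of all genes were called (9.44% higher, 6.55% lower); with any single library left out, the members called numbered between 2 and 5, and 2 without control 48 h replicate 1, 2 or 5 or without control 24 h replicate 1, 3 or 4. For 48 over 3 h 7 rose and 1 fell, against 49.3% called overall (24.5% higher, 24.8% lower). With 10 µM BPS 6 rose and 2 fell for 24 over 3 h (42.9% of all genes called, 21.4% higher and 21.5% lower) and 3 rose for 48 over 24 h (24.1% called, 13.5% higher and 10.6% lower). With 50 µM BPS 6 rose and 1 fell for 24 over 3 h (43.4% called, 21.1% higher and 22.3% lower). The median log2 fold change of the members was 0.83 for 24 over 3 h and 1.30 for 48 over 3 h in control, while that of all genes tested was -0.01 in both. These time comparisons share libraries with each other.

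Against control, 0 of 9 members were called at 50 µM at 3 h (0.0538% of all genes called) and 0 at 24 h (0.375%) by edgeR, with 2 (Chrna1 and Chrnb1) and 0 at an unadjusted p below 0.05. At 10 µM 0 of 9 were called at each of the 3 times, where 0% of all genes were called by edgeR, with 1 (Chrnd), 0 and 1 (Ache) at an unadjusted p below 0.05. DESeq2 called 0 members in each of these 5 comparisons. With the replicate number as a block in edgeR, Chrnb1 was called at 50 µM and 3 h, where 1.53% of all genes were. At an unadjusted p below 0.05 the number of all genes at 10 µM was 329 of 16654, 494 of 16529 and 438 of 16725 at 3, 24 and 48 h, and DESeq2 called 0 at each time. The unadjusted number at 50 µM was 1334 of 16722 genes tested at 3 h and 2048 of 16512 at 24 h. At 50 µM and 48 h, where 1% of all 16663 genes were called, Ache was the 1 member called; since the set was chosen from this comparison, nothing is read from that count. The median log2 fold change of the members in it was 0.01.

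**Figure D3:**
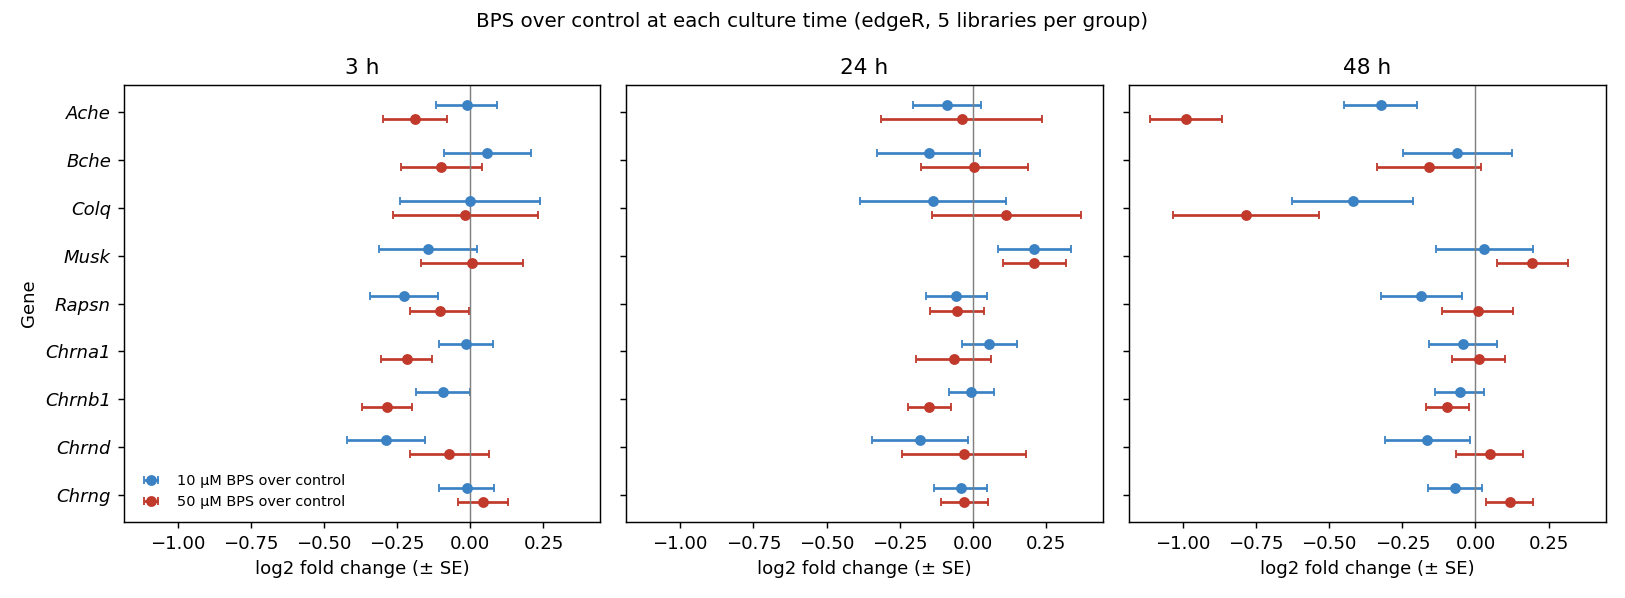
Log2 fold change of BPS over control (horizontal axis, ± SE) for the 9 members tested (vertical axis) at 3, 24 and 48 h, with blue points for 10 µM and red points for 50 µM. Ache at -0.99 and Colq at -0.78, both at 50 µM and 48 h, lie farthest from 0, and the receptor subunits at that time lie between -0.10 and 0.12.

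Levels were also ordered within a group as CPM per kilobase of gene length. In control at 48 h the order was Chrnb1 (17.4), Rapsn (17.0), Chrna1 (14.8), Chrng (14.1), Chrnd (10.7), Ache (3.78), Musk (2.59), Colq (1.64), Bche (0.589) and Chrne (0.0336). Neighbours among the first 5 overlapped between libraries, and from Chrnd to Ache and onwards they did not. At 50 µM and 48 h Ache stood at 1.91 CPM per kilobase, below Musk at 2.97 without overlap, whereas it stood above Musk in control.

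Since muscle genes rose during culture, Ache was also set against them within each library, as Ache CPM per 1000 CPM of the 35 sarcomere genes. The ratio in control was 6.58, 6.69, 5.03, 5.72 and 7.49 at 3 h and 2.22, 2.36, 3.19, 2.66 and 1.54 at 24 h. At 48 h it was 2.16, 2.10, 2.495, 1.81 and 2.08 in control. The 3 h libraries lay above all later ones. The difference of -3.91 for 24 less 3 h had an exact two-sided permutation p of 0.00794, the smallest that 5 against 5 libraries can give (0.0218 adjusted over 11 comparisons). The same p was found for 24 less 3 h with 10 µM BPS (-4.18) and with 50 µM BPS (-3.16). The difference of -4.17 for 48 less 3 h in control rests on libraries that entered the choice of Ache. It is among the 11 comparisons adjusted over and so entered the adjusted p above, but its own p is not given. The sarcomere sum in control was 2673 ± 114, 5857 ± 893.5 and 8276 ± 1179 CPM at 3, 24 and 48 h (SD, n = 5 each). At 3 and 24 h it was 2616 ± 237 and 5768 ± 393 CPM with 10 µM BPS. With 50 µM BPS it was 2661 ± 153 and 5618 ± 282 CPM (SD, n = 5 each). A rise of this denominator lowers the ratio by itself, so these p-values are no test of the level of Ache.

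At 48 h the ratio was 0.891, 1.29, 1.17, 1.22 and 1.04 at 50 µM, below every control library of that time. The mean was 1.12 ± 0.16 at 50 µM and 2.13 ± 0.24 in control (SD, n = 5 each). Both groups entered the choice of Ache, so these values are a description. At 10 µM it was 2.37, 1.60, 1.66, 2.26 and 1.47, with a mean of 1.87 ± 0.41 that did not differ from control beyond the spread (exact permutation p = 0.270, adjusted 0.424); the control libraries of this comparison entered the choice.

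**Figure D4:**
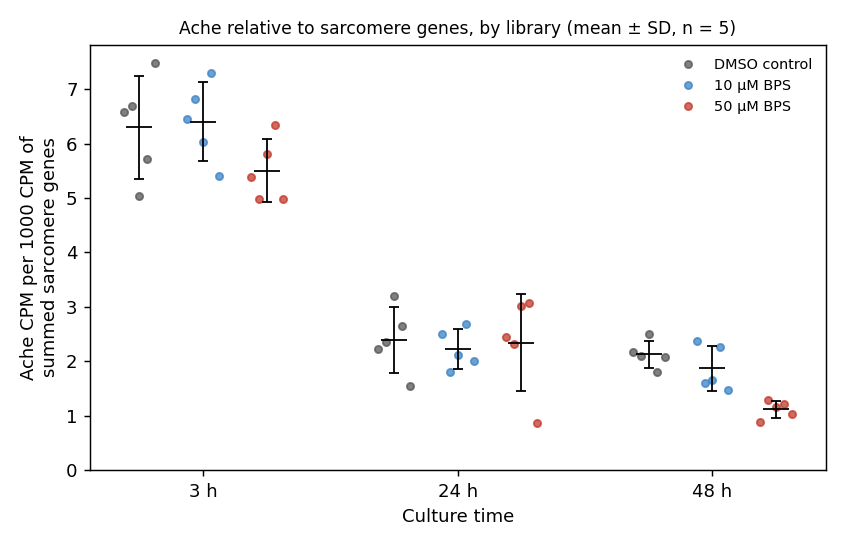
Ache CPM per 1000 CPM of summed sarcomere genes (vertical axis) at 3, 24 and 48 h (horizontal axis), with points for libraries and bars for the mean ± SD of 5; control, 10 µM and 50 µM BPS stand from left to right at each time. All 3 h libraries lie above 4.9, and the 5 libraries at 50 µM and 48 h lie between 0.891 and 1.29.

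Marker levels of the cells that could hold Ache were compared at 48 h between 50 µM BPS and control, as a description. The sarcomere sum ran from 7412 to 8190 CPM at 50 µM and from 6431 to 9581 CPM in control. The 16 neuron markers summed to 208.3 to 230.4 CPM at 50 µM and to 177.2 to 259.4 CPM in control, with 0 of the 12 tested called. Dcx held 122.1 ± 6.95 CPM of the sum at 50 µM and 111.5 ± 24.2 CPM in control (SD, n = 5 each). The median log2 fold change of the 12 was -0.17, and Tubb3 averaged 1.58 ± 0.20 CPM at 50 µM and 2.26 ± 0.38 CPM in control (SD, n = 5 each). The 15 erythroid markers found summed to 684 to 816 CPM at 50 µM and to 669 to 1315 CPM in control. The 8 megakaryocyte markers summed to 11.04 to 13.2 CPM at 50 µM and to 9.67 to 13.7 CPM in control. Of the 10 erythroid and 4 megakaryocyte markers tested 0 were called, with median log2 fold changes of -0.23 and 0.07. Of all genes, 1% were called in this comparison. The sarcomere, neuron, erythroid and megakaryocyte sums each overlapped between the groups.

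Some macrophage and endothelial markers were lower at that dose and time, where 1% of all genes were called. The 10 macrophage markers summed to 144.6 to 222.2 CPM at 50 µM, against 216.5 to 293.8 CPM in control, and 4 of them (Csf1r, C1qa, C1qc and Lyz2) were called lower. At 50 µM and 24 h the macrophage markers summed to 103.9 to 132.7 CPM, against 132.4 to 181.5 CPM in control. By edgeR 6 of 10 had an unadjusted p below 0.05 at that time, as did 2048 of all 16512 genes tested. The 1 called there, where 0.375% of all genes were, was C1qb, a chain of complement C1q, with 13.3 ± 1.41 CPM at 50 µM and 19.3 ± 3.12 CPM in control (SD, n = 5 each; log2 fold change -0.52 ± 0.11, adjusted p = 0.0475). The 10 endothelial markers summed to 241.4 to 299.2 CPM at 50 µM, against 266.9 to 380.5 CPM in control, with Cdh5 called lower. The part of these cells in the level of Ache was not tested.

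Of the genes of the nerve ending, Chat and Slc18a3 were near 0. Chat, which makes acetylcholine, held 0 to 7 reads per library over all groups, and Slc18a3, which loads it into vesicles, held 0 to 8. Slc5a7, the choline transporter, averaged 2.64 ± 0.46 and 2.13 ± 0.87 CPM in control at 3 and 24 h. At 48 h it averaged 0.774 ± 0.369 CPM at 50 µM and 1.38 ± 0.57 CPM in control (SD, n = 5 each). Prima1, the membrane anchor of acetylcholinesterase in brain, averaged 0.453 ± 0.123 CPM at 50 µM and 0.828 ± 0.282 CPM in control at 48 h. Both pairs of groups overlapped.

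Ache overlaps the lincRNA Gm42456, which did not exceed 0.0627 CPM in any group, and holds Mir8116 inside its last part, whose counts came to 0.481 CPM at 50 µM and 0.876 CPM in control at 48 h. The kit is not stated to mark strand. Ufsp1, a protease gene next to Ache, averaged 3.01 ± 0.52 CPM at 50 µM and 4.56 ± 1.32 CPM in control at 48 h (SD, n = 5 each). Its libraries, at 2.10 to 3.37 CPM at 50 µM and 3.45 to 6.64 CPM in control, did not overlap either, as for 1.68% of all genes. Colq overlaps Gm49387 on the same strand, a gene for which no count was found. Reads of Gm49387 could therefore be counted as Colq, and the level of Colq is uncertain to that extent.

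The other neuromuscular junction genes, a list of 29 that includes agrin, LRP4 and laminins, moved both ways with time. For 48 over 3 h in control 15 rose, 5 fell and 9 did not pass, with a median log2 fold change of 0.25, where 24.5% of all genes were called higher and 24.8% lower. Dok7, the adaptor of MuSK, averaged 23.9 ± 2.67 CPM at 48 h and 7.94 ± 0.56 CPM at 3 h, a log2 fold change of 1.58 ± 0.10 (adjusted p = 1.67e-09). Lamb2, a laminin chain of the synaptic basal lamina, rose by 0.90 ± 0.07 (adjusted p = 1.69e-08), and Lrp4, the agrin receptor, by 0.32 ± 0.07 (adjusted p = 0.00158). Agrn, at 370.6 ± 61.8 CPM at 48 h and 365.1 ± 30.3 CPM at 3 h, did not pass (adjusted p = 0.926). Against control, edgeR called 0 of the 29 at 10 µM at 3, 24 and 48 h and 0 at 50 µM at 3 and 24 h. Of all genes, 0% were called at 10 µM at each time, and 0.0538% and 0.375% at 50 µM at 3 and 24 h. At an unadjusted p below 0.05 there were 0, 1 and 2 at 10 µM and 2 and 8 at 50 µM. Over all genes the numbers were 329 of 16654, 494 of 16529 and 438 of 16725 at 10 µM, and 1334 of 16722 and 2048 of 16512 at 50 µM. At 50 µM and 48 h, where 1% of all genes were called, 1 was called lower, the intermediate filament gene Nes. It stood at 259.6 ± 19.0 CPM and at 328.6 ± 40.1 CPM in control (SD, n = 5 each).

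Of 24 other cholinergic genes, 14 were tested for 48 over 3 h in control, where 4 rose and 3 fell, a share near the 49.3% of all genes called in that comparison (24.5% higher, 24.8% lower). The muscarinic receptor gene Chrm3 rose by 0.91 ± 0.17 (adjusted p = 0.000221), while Chrm4 fell by 1.53 on the log2 scale with an SE of 0.35 (adjusted p = 0.00176). Chrm3 averaged 4.56 ± 0.88 CPM at 3 h and 8.63 ± 1.64 CPM at 48 h. The level of Chrm4 was low, at 1.61 ± 0.63 and 0.554 ± 0.234 CPM (SD, n = 5 each). Among 15 myogenic factors 8 rose and 2 fell over the same interval, led by Mymk, the membrane fusion protein of myoblasts, at 1.66 ± 0.11 (adjusted p = 4.44e-09). Among 34 sarcomere genes tested 32 rose and 1 fell, with a median of 1.75. By edgeR neither the cholinergic nor the myogenic list held a called gene at either dose against control at any time. Of all genes, 0% were called at 10 µM at each time, and 0.0538%, 0.375% and 1% at 50 µM at 3, 24 and 48 h. At an unadjusted p below 0.05 both lists had 0 genes at 10 µM at each time. At 50 µM the cholinergic list had 1 at 3 h and 3 at 24 h, and the myogenic list 1 at 3 h and 0 at 24 h. Over all genes at 50 µM the numbers were 1334 of 16722 at 3 h and 2048 of 16512 at 24 h. Of the sarcomere genes 1 was called, the myoglobin gene Mb, higher at 50 µM and 48 h with 7.76 ± 0.86 CPM against 5.13 ± 0.56 CPM in control (SD, n = 5 each). In that comparison 34 sarcomere genes were tested and 1% of all genes were called.

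The patterns of Ache and of Chrng across the 45 libraries were unlike each other, with a Pearson r of -0.41 between their log2 CPM. The search covered 13586 genes that passed the low-count filter and had a mean of at least 1 CPM. Genes with a gene model name, such as a Gm or Rik symbol, were left out. Among those searched, the closest to Chrng were Actc1 (r = 0.985), Actn2 (0.984), Hfe2 (0.982), Synpo2l (0.981) and Mybph (0.979). Of the members, Chrna1 (0.969), Chrnd (0.967), Chrnb1 (0.959), Rapsn (0.933) and Musk (0.863) were close to Chrng, Colq less so (0.644), and Bche ran the other way (-0.767). Those closest to Ache were Atg101 (0.683), B9d2 (0.681), Ubb (0.656), Dnlz (0.654) and Gpr20 (0.643), and those farthest were Sc5d (-0.727), Fbxo3 (-0.714) and Phf10 (-0.714). Sc5d, a late enzyme of cholesterol synthesis, averaged 50.6 ± 3.28 CPM at 50 µM and 36.9 ± 1.95 CPM in control at 48 h (SD, n = 5 each). With the mean of each group subtracted, the genes closest to Ache were Pepd (0.674), Mrps24 (0.656), Acyp2 (0.655), B9d2 (0.649) and Ufsp1 (0.645). These values describe libraries that share culture times and doses, including those used for the choice.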

How the data were processed

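The authors deposited raw read counts per gene and library, per the file headers, in 9 tables of 10 libraries each, 1 per comparison. Per the submitters' processing notes the tools were STAR 2.5, HTSeq 0.6.1, CASAVA 1.8 and DESeq2, version 2, with build mm10; for annotation release and counting options the entry is not given in the sources used here. Tables were joined by gene identifier; 1319925 control counts found in more than 1 table differed in 0 cases, and missing genes were set to 0.

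Every pair of groups had a fit of its 10 libraries alone, with edgeR 4.0.16 (R 4.3.3): quasi-likelihood test, two-sided, robust, TMM scaling and the filterByExpr filter. CPM used TMM factors over 45 libraries, and log2 CPM a prior count of 2. DESeq2 1.42.0, RLE scaling, no filter, the replicate number as a block and leaving out each library were alternatives. The ratios of Ache to sarcomere genes and of Chrne to Chrng were tested by exact permutation and adjusted over 11 comparisons. The fits were tested on simulated data. Floors cover counting error only, since reads carry no molecular identifiers.

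The 10 members, the gene lists and the tests were chosen with earlier results of these data known. All members are named, with up to 4 genes per list by smallest p for 48 over 3 h in control; Agrn, Lrp4, genes called at 50 µM, genes of the nerve ending and genes next to members were named after their values were seen. Motifs were searched in upstream windows of the RefSeq table.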

Additional observations from a re-analysis of the deposited data

Results flagged for a closer look

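In groups of 5 libraries, a library was marked when its gap to the nearest other library, divided by the range of the group, was above 0.71, Dixon's critical value. Of 108 groups examined 6 were marked, and chance marks about 1 in 20. Ache was lowest in replicate 5 of control at 24 h, with 10.61 CPM, while the other 4 libraries lay between 13.78 and 14.75 CPM. Rapsn was lowest in replicate 5 of 50 µM BPS at 24 h, with 16.67 CPM, against 18.8 to 19.2 CPM in the others. Chrng was lowest in replicate 3 of control at 48 h, with 45.7 CPM, against 60.28 to 63.03 CPM. Chrne was highest in replicate 3 of 50 µM BPS at 24 h, with 0.14 CPM, while the others held 0 reads, and this library also had the highest Chrne share of the receptor pair in its group, 0.7158%. The Chrne share was highest in replicate 4 of 10 µM BPS at 48 h, with 1.505%, against 0.4751 to 0.73% in the others. Both Chrne values rest on few reads.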

How the results depend on the processing

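No log2 fold change of a member that was called, with the settings of the report or with an alternative, changed sign. Differences called under neither could: that of Ache at 50 µM and 24 h ran from -0.15 to 0.16 with a library left out. The share of all genes called changed with the setting. For 50 µM BPS over control it was 0.0538%, 0.375% and 1% at 3, 24 and 48 h; DESeq2 gave 0.251%, 1.75% and 2.77%, and no filter on low counts gave 0.191%, 0.791% and 0.837%, each of a larger number of genes tested. With any single library left out it ran from 0.00583% to 0.107% at 3 h (without 50 µM replicates 1 and 2), from 0.0119% to 1.89% at 24 h (without 50 µM replicate 4 and control replicate 5) and from 0.327% to 1.67% at 48 h (without 50 µM replicate 4 and control replicate 1). For 10 µM at 3 h, no filter gave 0.00318% in place of 0%. Among members, the number called for 48 over 24 h in control ran from 2 to 5 with a library left out, and the change of the Chrne share ran from -1.692 to -0.5555 for 24 less 3 h and from -2.009 to -0.8726 for 48 less 3 h, in percentage points. Chrnd for 48 over 24 h in control passed with DESeq2 (adjusted p = 0.0442), as did Chrna1 for 48 over 24 h at 10 µM (0.0403); both also passed with the replicate block (0.00115 and 0.0452). The causes were not tested.

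The labels do not say that a replicate number marks a shared culture, and no comparison had every pair of same-numbered libraries correlated above 0.1. Against control, 4 of 5 pairs did at 50 µM and 3 h and at 10 µM and 24 h. In both, 4 of 5 libraries correlated best with their own number. At 50 µM and 24 h these counts were 3 and 4 of 5. With the replicate number as a block, the share of all genes called at 50 µM was 1.53%, 5.75% and 0.42% at 3, 24 and 48 h, and 1 member, Chrnb1 at 3 h, was gained among the comparisons with control (adjusted p = 0.0446). Under the block the differences of Ache per sarcomere level for 24 less 3 h were -3.907 in control, -4.175 at 10 µM and -3.155 at 50 µM. With 5 pairs no exact p can be below 0.0625, so none could pass (adjusted p = 0.1375 each). The difference for 48 less 3 h in control was -4.17, and its p is not given, since the 48 h libraries entered the choice of Ache. Leaving out a library changed 24 of 1080 calls of single members, 20 of them losses. Chrne, with 0 to 9 reads per library, was too low to be tested by edgeR.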
